A study of Ovis aries with 16 samples.

Results

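The mitochondrial genome is a small circular DNA that encodes core subunits of the respiratory chain and of ATP synthase, together with the ribosomal and transfer RNAs that translate them. It is transcribed as long precursors from both strands, which are processed so that the messenger RNAs, most of them polyadenylated, end next to transfer RNAs. Libraries of polyadenylated RNA therefore usually carry mitochondrial messenger RNAs, while transfer RNAs are poorly captured. The members described here are the 37 rows of the count table with the IDs ENSOARG00000000001 to ENSOARG00000000037, of 25197 IDs in all. They were chosen by ID number, which is taken to follow the sheep mitochondrial genes in genome order. Each is called below by its place, the last digits of its ID, so that place 35 is ENSOARG00000000035.

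Transcripts were counted in the amnion, the inner fetal membrane, of 16 ewes with singleton fetuses, 4 animals in each of 4 groups and 1 library per animal. All animals, controls included, carried catheters in maternal and fetal vessels, in the amniotic sac and in the fetal bladder, placed when gestation had reached 121 ± 0.5 days (mean ± SE), where term is 145 to 150 days. Over 2 days the control group (C) had no change of fluid, the UD group lost its fetal urine by drainage, the UDR group was drained and given the lost volume back as lactated Ringer's solution, and the IA group received lactated Ringer's solution into the amniotic sac at 2 liters/day. The study altered the transport of amniotic fluid across the amnion in this way, and the comparisons of the groups ask whether transcripts of the mitochondrial block moved with it. The libraries held 12245460 to 30767263 counts. The median Spearman correlation of a library with the rest was 0.893 in IA 2 and 0.913 to 0.967 elsewhere. By the column names, lane 1 carried the controls with UD 1 and UD 2, lane 2 carried UD 3, UD 4 and all of UDR, and lane 3 carried all of IA and second runs of UDR 2 and UDR 3. UDR and IA therefore shared no lane with the controls, and lane and treatment cannot be told apart there.

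The assignment of the block could be checked only in part. None of the 37 IDs matched the RefSeq gene table of assembly ARS-UI_Ramb_v3.0, so no ID is given a gene name, a length or a sequence here. That table lists 37 mitochondrial genes, 22 tRNA, 2 rRNA and 13 protein-coding genes, the same number as the block. Read place by place, counts were found at all 13 places where the RefSeq order has a protein-coding gene, at both rRNA places and at 4 of the 22 tRNA places. The 18 IDs at 0 in every library all lay at tRNA places. Outside the block, 82.0% of IDs had a count. The first ID after the block, ENSOARG00000000038, was at 81.9 to 219 CPM (the count over the library total, times 1000000), so the end of the block is not marked by a change in level. The classes below are those of the RefSeq order at a place, and they hold only if the IDs follow that order. The amnion itself could not be checked by its marker genes, because 0 of the symbols of 9 fixed lists of cell types and mitochondrial pathways could be paired with IDs.

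Of the 37 IDs, 19 had at least 1 count in some library and 11 had a count in every library. Just 10 passed the filter on low counts and were tested, at places 10, 16, 19, 22, 23, 28, 32, 33, 35 and 37. Nearly all counts of the block came from 6 of them, places 16, 22, 32, 33, 35 and 37, which held 99.8% of the block's counts over all libraries and 99.6% to 99.9% in each. The 9 members with counts that were not tested, places 2, 4, 6, 14, 17, 21, 25, 27 and 34, summed to 187 counts over the 16 libraries, with at most 12 in any 1 library. For an ID at 0, the 3 counts that a count of 0 allows correspond to 0.0975 CPM in UDR 2, the deepest library, and to 0.245 CPM in UDR 4, the shallowest. Nuclear genomes hold copies of mitochondrial DNA, and how reads that match several places were counted is not given in the sources used here, so the level of each member is uncertain. RefSeq genes at 6 pairs of neighbouring places overlap, namely 7 and 8, 16 and 17, 21 and 22, 27 and 28, 32 and 33, and 36 and 37. Of the 6 leading places, only 35 lies outside these pairs. The strand setting is not stated, and how reads in the stretch shared by such a pair were assigned is not known.

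**Figure D1:**
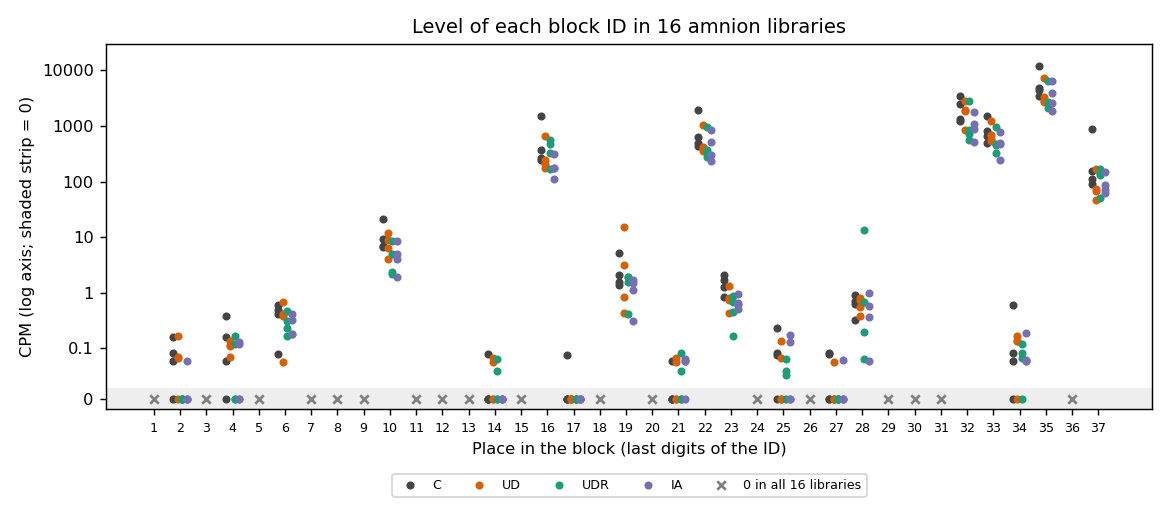
CPM (log axis) of each of the 37 block IDs by place, 1 point per library, coloured by group, with values of 0 in the shaded strip and crosses for the 18 IDs at 0 in all 16 libraries. Places 16, 22, 32, 33, 35 and 37 lie far above the rest, and single libraries stand out at places 19 and 28.

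The block took 0.304% to 2.13% of a library's counts, with a median of 0.606% over the 16 libraries. In C the share was 2.13% in C 1, 0.744% in C 2, 0.607% in C 3 and 0.907% in C 4. In UD it was 0.574%, 1.32%, 0.487% and 0.674% in animals 1 to 4. In UDR it was 0.451%, 0.416%, 1.20% and 0.447%, and in IA it was 0.606%, 0.466%, 0.304% and 1.03%. Each group thus held 1 library well above its other 3, namely C 1, UD 2, UDR 3 and IA 4, and every pair of groups overlapped. The exact 95% binomial interval of C 1 ran from 2.12% to 2.13% and that of IA 3 from 0.302% to 0.307%. Counting error, which is all these intervals cover, was thus small beside the differences between libraries. The 2 runs of UDR 3 gave 1.20% and 1.21%, and those of UDR 2 gave 0.414% and 0.418%. In bulk tissue, fewer cells with many mitochondria and less mitochondrial RNA per cell cannot be told apart. The share covers only reads counted at these IDs, so it need not follow the whole of the mitochondrial RNA.

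The controls had a mean share of 1.10% ± 0.698, the UD group 0.764% ± 0.378, the UDR group 0.629% ± 0.383 and the IA group 0.6002% ± 0.309 (SD, n = 4 each). The differences from C were -0.33 percentage points in UD, -0.47 in UDR and -0.50 in IA, each smaller than the pooled SD of the 2 groups, which was 0.561, 0.563 and 0.540. As a sum over the members, the share is described without a test. Leaving out 1 library at a time, the UD difference ran from -0.52 without UD 2 to 0.01 without C 1. The UDR difference ran from -0.66 without UDR 3 to -0.12 without C 1, and the IA difference from -0.66 without C 3 to -0.15 without C 1. Between group medians, the differences from C were -0.20, -0.38 and -0.29. Between treated groups the means differed by -0.13 for UDR against UD, -0.16 for IA against UD and -0.03 for IA against UDR. With 1 library left out, UDR against UD ran from -0.33 without UDR 3 to 0.05 without UD 2, IA against UD from -0.30 without IA 4 to 0.02 without UD 2, and IA against UDR from -0.17 without IA 4 to 0.16 without UDR 3. Between medians these differences were -0.18, -0.09 and 0.09, so the last changed sign. Within lane 1, UD 1 and UD 2 differed from the controls by -0.15. Within lane 2, UDR differed from UD 3 and UD 4 by 0.05, and within lane 3, IA differed from UDR 2 and UDR 3 by -0.21.

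**Figure D2:**
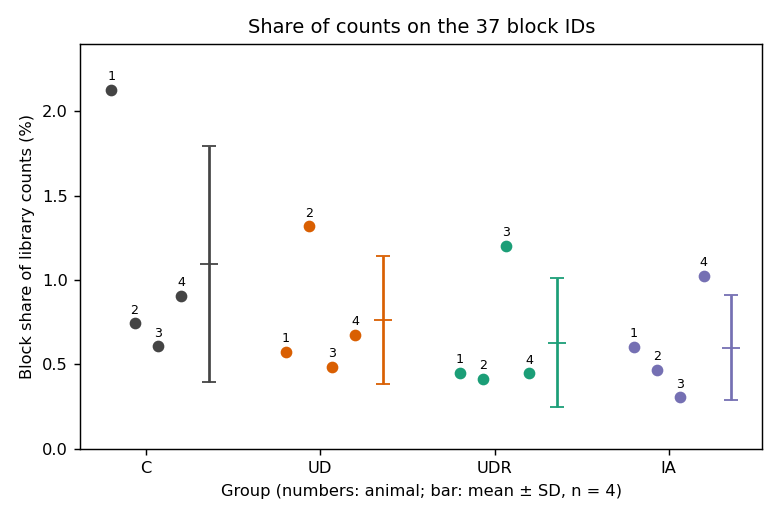
Share of each library's counts on the 37 block IDs (percent), 1 numbered point per animal, with the group mean ± SD (n = 4) to the right of each group. C 1 is highest at 2.13% and IA 3 lowest at 0.304%, and every group overlaps every other.

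Among the places of protein-coding genes, place 35 held the most counts, 55.7% of the block. In C it stood at 11933, 4504, 3441 and 4748 CPM in animals 1 to 4, and in UD at 2688, 7261, 2795 and 3381 CPM. In UDR it stood at 2636, 2088, 6558 and 2686 CPM, and in IA at 3898, 2545, 1863 and 6375 CPM. C 1, UD 2, UDR 3 and IA 4 were the highest of their groups, and all groups overlapped. Among all IDs of a library, place 35 ranked between 2, in C 1, and 56, in IA 3. Its mean was 6156 ± 3893 CPM for the controls, 4031 ± 2175 for UD, 3492 ± 2062 for UDR and 3670 ± 1992 for IA (SD, n = 4 each).

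Place 32 held 20.8% of the block's counts. Its values in animals 1 to 4 were 3459, 1245, 1332 and 2494 CPM in C and 1857, 2823, 843 and 1967 CPM in UD. They were 565, 725, 2820 and 845 CPM in UDR and 894, 1074, 510 and 1759 CPM in IA. UD 1 and UD 4 lay above C 2 and C 3 here, which they did not at place 35. Place 33, at 8.79% of the block's counts, stood at 1517, 648, 492 and 827 CPM in C and at 588, 1205, 537 and 690 CPM in UD. In UDR it was at 472, 449, 977 and 327 CPM, and in IA at 482, 490, 249 and 790 CPM. The libraries highest at place 35 in each group were the highest at place 33 too.

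Place 22, with 7.67% of the block's counts, was at 1925, 504, 443 and 627 CPM in C and at 356, 1045, 386 and 418 CPM in UD. Its UDR values were 330, 273, 970 and 372 CPM, and its IA values 510, 304, 237 and 850 CPM. C 1, UD 2, UDR 3 and IA 4 were again the highest of their groups. Place 16, with 4.95%, was at 1526, 370, 264 and 248 CPM in C and at 176, 662, 244 and 203 CPM in UD. In UDR it was at 328, 480, 558 and 167 CPM, and in IA at 176, 179, 111 and 315 CPM. Here UDR 2 lay near UDR 3, whereas at places 22, 32 and 35 it lay far below it.

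The other 8 protein places held few counts. Place 10 ran from 1.94 CPM in IA 3 to 21.3 CPM in C 1, with a median of 6.47. Place 23 ran from 0.163 CPM in UDR 4 to 2.08 CPM in C 1, with a median of 0.772. Place 6 had 1 to 12 counts per library, and places 21, 25 and 27 had at most 3. These values are counts per library total and are not scaled to gene length, so they give no order of transcript levels between members.

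At 2 further protein places, single libraries stood far from the rest. Place 19 was at 15.3 CPM in UD 3, from 226 counts, against 0.304 to 5.13 CPM in the other 15 libraries, so that UD 3 was 2.98 times the next library, C 1. The other UD libraries were at 0.431, 3.15 and 0.842 CPM. Place 28 was at 13.1 CPM in UDR 4, from 161 counts, against 0.0596 CPM in IA 2 to 0.991 CPM in IA 4 among the rest, so that UDR 4 was 13.3 times the next library. The other UDR libraries were at 0.0626, 0.195 and 0.663 CPM. At places 22, 32, 33 and 35, by contrast, neither UD 3 nor UDR 4 was the highest library of its group. The cause of these single values was not tested.

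The 2 rRNA places were almost empty, with 0 to 3 counts per library at place 2 and 0 to 5 at place 4, and with 34 counts in all. Of the tRNA places, 37 was the exception. It held 620 to 11788 counts per library and 1.92% of the block, whereas the other tRNA places with counts, 14, 17 and 34, had at most 8 counts in a library. Place 37 was at 877, 157, 91.5 and 112 CPM in C and at 66.6, 171, 46.7 and 73.6 CPM in UD. In UDR it was at 168, 144, 130 and 50.6 CPM, and in IA at 86.3, 60.9, 69.8 and 149 CPM. C 1 was 5.14 times the next library, UD 2, a wider gap than the 1.64 times at place 35.

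**Figure D3:**
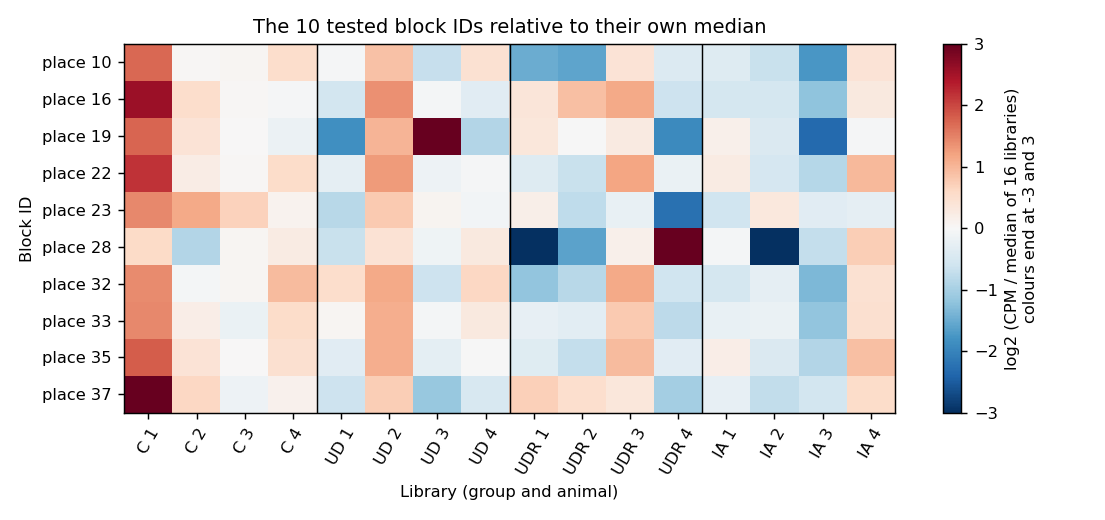
Colour shows log2 of the CPM over the member's own median across 16 libraries, for the 10 tested block IDs (rows) in each library (columns), with lines between groups and colours ending at -3 and 3. C 1 is high in nearly every row, IA 3 low in most, and C 1 at place 37, UD 3 at place 19 and UDR 4 at place 28 reach the upper end of the scale, while UDR 1 and IA 2, with 1 count each, reach the lower end at place 28.

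Many of the tested members were high in the same libraries and low in the same libraries, whatever the group. C 1 was the highest library for 8 of the 10 tested members, the exceptions being places 19 and 28. UD 2 was the second highest for 7, and UDR 3 the third highest for 5. IA 3 was the lowest for 7, the exceptions being places 23, 28 and 37. How many of all genes tested ranked these libraries in the same way was not counted. The order is therefore not shown to be particular to the block. The members that passed the filter also varied more within groups than a typical gene did. Their median SD of log2 CPM was 0.76 for the controls, 0.61 for UD, 0.87 for UDR and 0.69 for IA, where the medians of the 14148 genes tested were 0.42, 0.56, 0.59 and 0.48. The biological coefficient of variation of the 10 members was 0.441 to 1.03, with a median of 0.546, against 0.427 over all genes tested.

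The members did not keep fixed proportions. Across the 16 libraries the ratio of counts at place 35 to those at place 22 ran from 6.20 to 8.94, a 1.44-fold range. The ratio of place 32 to place 37 ran from 3.36 in UDR 1 to 27.9 in UD 1, an 8.29-fold range. Place 32 made up 32.3% of the block in UD 1, 29.2% in UD 4 and 27.5% in C 4, against 12.5% in UDR 1 and a median of 18.2%. Place 16 made up 11.5% in UDR 2, 7.29% in UDR 1 and 7.17% in C 1, against a median of 4.09%. Place 37 made up 4.12% in C 1, 3.73% in UDR 1 and 3.45% in UDR 2, against a median of 1.37%. The same 3 libraries, C 1, UDR 1 and UDR 2, thus had the highest proportions of places 16 and 37, while those with the highest proportions of place 32 came from UD and C.

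By group, place 35 made up 56.4% ± 3.35 of the block for the controls, 52.3% ± 4.75 for UD, 55.8% ± 4.46 for UDR and 60.6% ± 4.20 for IA (SD, n = 4 each). For place 32 the values were 20.6% ± 5.27, 25.1% ± 6.92, 18.1% ± 4.50 and 17.9% ± 3.57 in the same order. Of 36 pairs of a leading member and a comparison, the groups did not overlap in 2. Place 33 made up at least 9.14% in UD and at most 9.12% in C, and place 37 at least 1.31% in IA and at most 1.29% in UD. The gaps were 0.0217 and 0.0133 percentage points. Over all genes tested, counts per block count did not overlap between UD and C for 3.09% of genes, and between IA and UD for 0.269%. In the comparisons where no leading member lay apart, these shares were 4.11% for UDR against C, 2.26% for IA against C, 0.99% for UDR against UD and 0.742% for IA against UDR. For genes outside the block, counts per block count also vary with the block's share of the library. These shares are therefore not a like background for the members.

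**Figure D4:**
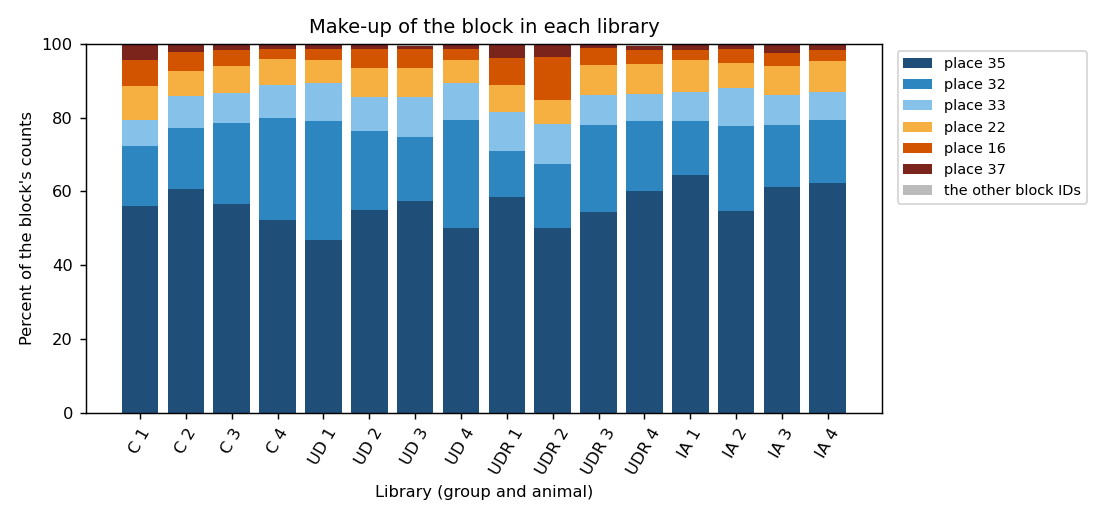
Percent of the block's counts at each of the 6 leading places, stacked to 100% for each library. Place 35 takes 46.8% (UD 1) to 64.4% (IA 1), place 32 is widest in UD 1 and UD 4, and place 16 is widest in UDR 2.

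In the comparison of UD with C, which asks what draining urine without replacement does, no member passed the test. edgeR called 0 of the 10 members tested and 0% of the 14148 genes at an adjusted p under 0.05. An unadjusted p under 0.05 was found for 1 member and for 5.46% of all genes. In no member did the CPM of the groups lie apart, as they did for 3.94% of genes. Log2 fold changes were below 0 for 8 of the 10, with a median of -0.40, where 51.5% of all genes were below 0 and the median was -0.01. Without C 1, 2 of the 10 were below 0 and the median was 0.21, while without UD 2, 9 were below 0 and the median was -0.69. The median was -0.18 by limma-voom, here run with weights for sample quality, -0.19 with lane in the fit and -0.22 within lane 1. Place 35 had a log2 fold change of -0.46 (SE 0.51), with a 95% interval from -1.55 to 0.62 and an adjusted p of 0.995 by edgeR. It was 0.04 without C 1, -0.83 without UD 2, -0.21 by limma-voom, -0.19 with lane in the fit and -0.21 within lane 1. Place 32 was at -0.03 (95% interval -1.20 to 1.14) and place 33 at -0.05 (-0.98 to 0.87), and both took either sign when 1 library was left out. The smallest p was that of place 37, with a log2 fold change of -1.63 (SE 0.66; adjusted p = 0.890 by edgeR), which was -0.31 without C 1, -0.78 by limma-voom and -1.27 within lane 1. DESeq2 called 0 members and 14 of the 14148 genes here, while limma-voom called 0 members and 3363 genes. DESeq2 gave no adjusted p for place 28.

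UDR was set against C to ask about drainage in which the volume is given back, and again no member passed. edgeR called 0 of the 10 members and 0% of genes, and an unadjusted p under 0.05 was found for 1 member and for 6.1% of genes. The groups overlapped in every member tested, while 2.7% of genes did not overlap. Of the 10, 9 had a log2 fold change below 0, with a median of -0.65, against 48.3% of genes and a median of 0.02 over all genes. Without C 1 it was 6 of 10, with a median of -0.06, and without UDR 3 the median was -1.15. Place 35 was at -0.66 (SE 0.51; 95% interval -1.75 to 0.42; adjusted p = 0.841 by edgeR), and at -0.15 without C 1. Without UDR 3 it was -1.17. Place 32 was at -0.64 (95% interval -1.82 to 0.53), with -1.45 without UDR 3, -0.41 without UDR 1 and -0.34 without C 1. Place 33 was at -0.48 (95% interval -1.41 to 0.44), with -0.89 without UDR 3, -0.27 without UDR 4 and -0.10 without C 1. The smallest p was that of place 23, where the log2 fold change was -1.23 (SE 0.53; adjusted p = 0.778 by edgeR). This place had 2 to 28 counts per library. Place 28, high in UDR 4 alone, was at 2.41 (SE 1.17). A fit of C, UD and UDR that also held the lane gave -0.08 at place 35, 0.02 at place 32 and -0.02 at place 33. The median over the 10 members was -0.05. Only the UD animals can separate lane from group in this fit, UD 1 and UD 2 against UD 3 and UD 4. UD 2 was the highest UD library at each of these places. The fit therefore cannot tell a lane effect from the high values of UD 2. DESeq2 called 0 members and 31 of the 14148 genes, while limma-voom called 0 members and 0 genes.

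In the comparison of IA with C, on added amniotic volume, the fold changes of the tested members were below 0 but none passed. edgeR called 0 of the 10 and 0% of genes. An unadjusted p under 0.05 was found for 2 members, places 16 and 37, and for 4.4% of genes. No member had groups that lay apart in CPM, against 2.64% of genes. In all 10 the log2 fold change was below 0, with a median of -0.91, where 51.8% of genes were below 0 and their median was -0.02. Since the members share the same libraries, these 10 values are not independent of each other. Without C 1 the 10 were still below 0, with a median of -0.34, and without IA 4 the median was -1.11. Without IA 2, or by limma-voom, 9 of 10 were below 0, with a median of -0.57 by limma-voom. Place 35 was at -0.63 (SE 0.51; 95% interval -1.71 to 0.46). It was -0.12 without C 1, -0.40 without IA 3, -0.98 without IA 4 and -0.21 by limma-voom. Place 32 was at -0.89 (-2.07 to 0.29), with -0.59 without C 1 and -0.57 by limma-voom. Place 33 was at -0.67 (-1.59 to 0.26), with -0.29 without C 1, -0.43 without IA 3 and -0.40 by limma-voom. Place 37 was at -1.62 (SE 0.66; adjusted p = 0.9998 by edgeR), at -0.30 without C 1 and at -0.56 by limma-voom. Neither DESeq2, which called 5 of the 14148 genes, nor limma-voom, which called 0 genes, called a member. UD, UDR and IA were each set against the same 4 controls, so the 3 comparisons share C 1.

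**Figure D5:**
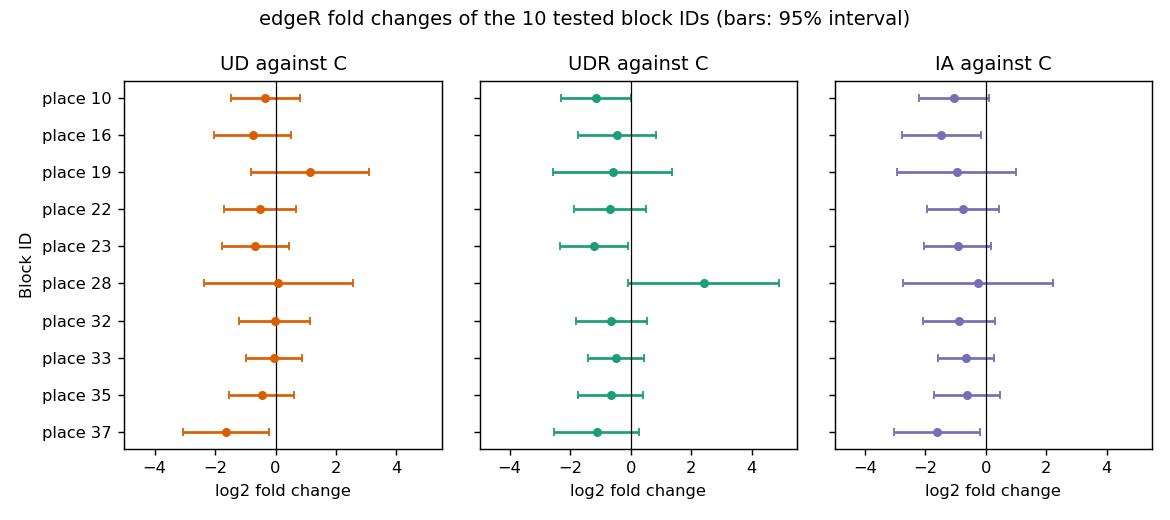
Log2 fold changes by edgeR (points) with 95% intervals (bars) of the 10 tested block IDs in UD, UDR and IA against C. Most points lie below 0 and most intervals include it, and place 28 in UDR, at 2.41, rests on UDR 4.

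Between treated groups edgeR also called 0 of the 10 members and 0% of genes. For UDR against UD an unadjusted p under 0.05 was found for 0 members and 8.88% of genes, for IA against UD for 1 member and 0.82%, and for IA against UDR for 1 member and 9.07%. The groups overlapped in each tested member, while they lay apart in 2.59%, 0.601% and 2.99% of genes. DESeq2 and limma-voom called 0 members in these 3 comparisons. Of the 14148 genes, DESeq2 called 155 for UDR against UD, 3 for IA against UD and 53 for IA against UDR. Limma-voom called 1638, 1445 and 0 genes in the same order.

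For UDR against UD, log2 fold changes were below 0 for 7 of the 10 members, with a median of -0.31, against 46.6% of genes and a median of 0.04. Without UDR 3 the members' median was -0.73 and without UDR 2 it was -0.19. Just 5 of the 10 were below 0 without UD 2, with a median of -0.01, with lane in the fit (-0.05) and within lane 2 (-0.03). Place 32 was at -0.61 (95% interval -1.79 to 0.56), place 33 at -0.43 (-1.36 to 0.50) and place 35 at -0.20 (-1.28 to 0.88). With 1 library left out, place 32 ran from -1.42 to -0.38, place 33 from -0.84 to -0.19 and place 35 from -0.70 to 0.16, each lowest without UDR 3. Limma-voom gave -1.31, -0.69 and -0.39 at these places, and the fit within lane 2 gave -0.25, -0.18 and 0.12.

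For IA against UD, 9 of the 10 were below 0, with a median of -0.49, against 49.8% of genes and a median of 0.00. Without IA 4 the median was -0.87 with 10 below 0, without IA 3 it was -0.32 with 8, and without UD 2 it was -0.23 with 7. Place 32 was at -0.86 (95% interval -2.04 to 0.32), place 33 at -0.61 (-1.54 to 0.31) and place 35 at -0.16 (-1.25 to 0.92). With 1 library left out, place 32 ran from -1.15 to -0.62, place 33 from -0.86 to -0.37 and place 35 from -0.51 to 0.20, each lowest without IA 4.

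For IA against UDR, 7 of the 10 were below 0, with a median of -0.21, against 52.1% of genes and a median of -0.03. The members' median was 0.31 with 4 below 0 without UDR 3, 0.01 with 5 without IA 3, -0.46 with 9 without IA 4, -0.51 with 8 within lane 3 and 0.14 with 3 by limma-voom. Place 32 was at -0.25 (95% interval -1.42 to 0.92), place 33 at -0.18 (-1.11 to 0.74) and place 35 at 0.03 (-1.05 to 1.12). Each of these 3 took either sign when 1 library was left out, highest without UDR 3 and lowest without IA 4. Within lane 3 they were at -0.80, -0.55 and -0.31. The UDR side of that fit held only UDR 2 and UDR 3, whose runs in lane 3 had block shares of 0.418% and 1.21%. UDR 3 therefore weighed more there than in the full group. The fit within lane 3 cannot tell a lane effect from the high values of UDR 3.

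Between treated groups, the members with the smallest p were those with 1 library apart. Place 28 was at 2.32 (SE 1.16; adjusted p = 0.573 by edgeR) for UDR against UD, and at -0.93 without UDR 4. For IA against UDR it was at -2.68 (SE 1.18; adjusted p = 0.520 by edgeR), at 0.57 without UDR 4 and at 0.05 within lane 3. The fit within lane 3 did not hold UDR 4 either. Place 19 was at -2.11 (SE 0.95; adjusted p = 0.9999 by edgeR) for IA against UD, and at -0.30 without UD 3. In the test of any difference among the 4 groups, edgeR and DESeq2 called 0 members. edgeR called 0% of genes, with 0 members and 6.42% of genes at an unadjusted p under 0.05. DESeq2 called 132 of the 14148 genes. Limma-voom with sample quality weights called 1 of the 10 members, place 32, with an adjusted p of 0.0428. It called 3928 of the 14148 genes, so such a call was not particular to this member.

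The precision of these comparisons was set by the spread between libraries, of which each animal gave 1. For the 4 leading protein places 22, 32, 33 and 35, the 95% intervals against C reached 0.92 to 1.19 to either side on the log2 scale, and for places 19 and 28 they reached 1.96 to 2.50. These widths are not adjusted for the number of genes tested, and members whose own interval left out 0 were still not called, as at place 37 in UD and place 23 in UDR. The missing calls do not show that the groups were alike.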

How the data were processed

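RNA was measured in 16 amnion libraries. Per the labels' protocols, polyadenylated RNA was selected, fragmented, copied from random hexamers and read on a HiSeq. The authors deposited raw read counts per Ensembl sheep gene ID. FastQC 0.11.3, HTSeq 0.6.1 and DESeq2 were used, per the submitters' processing notes. Not given in the sources used here are the aligner, the genome build, the annotation and the strand option. The table held 25197 IDs in 18 columns, all matched to a sample by name, and the 2 runs of UDR 2 and of UDR 3 were summed. CPM is the count over the library total, times 1000000.

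Counts were tested over the whole table with edgeR 4.0.16 in R 4.3.3 (quasi-likelihood F test, TMM scaling, filterByExpr, group as the only term, all 16 libraries in 1 fit), which left 14148 genes. Two-sided p-values were adjusted (Benjamini-Hochberg) over these genes and called under 0.05. Standard errors and 95% intervals come from that fit. Log2 CPM for the spread within groups used a prior count of 2. With 1 library per animal, p-values weigh the group differences against the spread between these libraries. Alternatives were other scalings and filters, DESeq2 1.42.0, voom weighted by sample quality in limma 3.58.1, lane terms and leaving out each library. The within-lane fits were chosen after seeing the data. The scripts were tested on simulated data.

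The members and lists were chosen with earlier results of these data known. Levels are given for each ID with a count. Fold changes are given for the 3 members of the highest mean CPM, for the member with the smallest p in each comparison and for any past the threshold. Place 28 in UDR against C and the limma-voom call at place 32 fall outside that rule and were named after their values were seen. The RefSeq table was used only for the class of gene at each place of its mitochondrial order. The 9 lists of gene symbols, 3 of mitochondrial pathways and 6 of cell types, could not be applied.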

Additional observations from a re-analysis of the deposited data

Results flagged for a closer look

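The block share and the CPM of the 10 tested members in each group gave 44 groups of 4 values. In 12, the gap of 1 library to its nearest other, over the group's range, exceeded Dixon's 95% critical value for 4 samples. For normally distributed values about 1 in 20, or 2.2, would do so. The values were not log-transformed, and how many of all genes tested meet this measure was not counted. The 12 therefore do not set the block apart from other genes. The groups are not independent, since the members share libraries. C 1 stood apart at 4 places, with 1526 CPM at place 16 (the next control at 370), 1925 CPM at place 22 (627), 11933 CPM at place 35 (4748) and 877 CPM at place 37 (157). UD 2 stood apart at 3, with 662 CPM at place 16, 1045 CPM at place 22 and 7261 CPM at place 35, where the next UD library was at 244, 418 and 3381 CPM. UDR 3 stood apart in the block share, at 1.20% against 0.451% in the next library, and at 970 CPM at place 22, 2820 CPM at place 32 and 6558 CPM at place 35. UDR 4 stood apart at 13.1 CPM at place 28, against 0.663 CPM in the next. No library of IA met this measure. Place 19 in UD 3 did not meet it either, because the other UD libraries also differed among themselves.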

How the results depend on the processing

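edgeR called 0 genes and 0 block members in each comparison under the scalings, filters, lane term, replicate block, first runs and left-out libraries tried. The exceptions lay in other tools and 1 within-lane fit. DESeq2 called 14 genes for UD against C, 31 for UDR against C, 5 for IA against C, 155 for UDR against UD, 3 for IA against UD, 53 for IA against UDR and 132 for any difference. Limma-voom with sample quality weights called 3363, 1638 and 1445 genes for UD against C, UDR against UD and IA against UD, 3928 for any difference with 1 block member, and 0 in the rest. The fit within lane 3 called 1 gene for IA against UDR. The cause of these differences was not tested. With at least 10 counts in 1 library, or a count in every library, 11 rather than 19 IDs were detected.

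Of 645 values of 24 fold changes under alternatives, 609 kept their direction, 36 reversed and 0 passed the threshold. By limma-voom, UD against C gave 0.58 at place 32 and 0.27 at place 33, UDR against UD -0.43 at place 28, IA against UD 0.12 at place 19, and IA against UDR 0.12 at place 28, 0.16 at place 32 and 0.020 at place 33. With the lane term, UD against C gave 0.29 at place 32 and 0.18 at place 33, UDR against C 0.023 at place 32 and UDR against UD 0.105 at place 35. Within lanes, UD against C gave 0.26 at place 32 and 0.15 at place 33, UDR against UD 0.12 at place 35, and IA against UDR 0.055 at place 28 and -0.31 at place 35. The cause was not tested. Leaving out 1 library, values for UD against C ran from -0.83 to 0.045 at place 35, -0.22 to 0.27 at place 32 and -0.30 to 0.33 at place 33. For UDR against UD they ran from -0.93 to 2.73 at place 28 and -0.70 to 0.16 at place 35, and for IA against UD from -0.51 to 0.20 at place 35. For IA against UDR they ran from -3.21 to 0.57 at place 28, -0.31 to 0.54 at place 35, -0.54 to 0.56 at place 32 and -0.43 to 0.23 at place 33.

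Replicate numbers name no shared origin in the labels. The deviations of 24 same-numbered pairs correlated between -0.56 and 0.64, with 10 over 0.1. Pairs with different numbers correlated between -0.59 (UD 2 with UDR 4) and 0.57 (UD 1 with IA 2). Of 16 libraries, 7 correlated best with their own number. The replicate block called 0 genes and 0 members, with 645 genes at an unadjusted p under 0.05 for UD against C in place of 773, and gave -0.021 at place 35 for IA against UDR. Place 28 was not tested under the filter of CPM above 1 in 4 libraries. The 9 members with counts that were not tested had at most 12 counts in a library.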
